A study of Bos taurus with 4 samples.

Results

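The sirtuins and PPARGC1A were examined in semitendinosus muscle from the hind leg of bulls aged 15 months, Limousin (LIM) as the beef breed and Holstein-Friesian (HF) as the dairy breed. The set held 7 genes, the sirtuins SIRT1, SIRT2, SIRT3, SIRT5, SIRT6 and SIRT7 and the coactivator gene PPARGC1A, chosen by symbol through the RefSeq accession of each array probe. Of these, 5 genes had a probe, 6 probes in all and each printed as a pair of spots, among 7788 genes that could be named on the array. All 5 stayed among the 6376 named genes above the filter on dim probes. No probe carried an accession assigned to SIRT3 or SIRT7, so these 2 genes were not analysed here.

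On each of 4 two-colour microarrays RNA of 1 LIM bull in red (Cy5) was hybridised with RNA of 1 HF bull in green (Cy3), which gave 4 bulls of each breed. Pieces from the middle of the muscle, cleared of fat and connective tissue, were collected at slaughter. There was no dye swap, for which reason breed and dye cannot be told apart. Directions here are those of the dye labels. The study's text and gene lists give the opposite direction for SIRT1 and for the other listed genes that could be matched. Its qPCR, run on selected genes including SIRT1, and its Western blot of myostatin gave the same directions as its lists. The labels of the channels or the study's sign may thus be exchanged, which was not tested. An exchange of the labels would turn every direction given below. All arrays lay on 1 slide, and the number of arrays limits the precision.

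Sirtuins are enzymes that use the cofactor NAD to remove acetyl and other acyl groups from proteins, which ties their activity to the energy state of the cell. SIRT1, SIRT6 and SIRT7 reside mainly in the nucleus, SIRT2 mainly in the cytosol, and SIRT3, SIRT4 and SIRT5 in mitochondria. PPARGC1A encodes PGC-1 alpha, a coactivator that drives the formation of mitochondria and the oxidative programme of muscle fibres. In mouse and human cells SIRT1 deacetylates PGC-1 alpha and raises its activity, and the kinase AMPK acts on the same coactivator.

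Of 42990 spots for bovine transcripts, the arrays had 32513 to 33527 well above background in red (LIM) and 27102 to 28769 in green (HF). Of 12 muscle fibre markers listed 9 were measured, each well above background in every bull. Their median log2 ratio was -0.044, with single genes from -1.06 (MYH7) to 1.02 (MB). Of the markers of other cells, 7 fibroblast and matrix genes had a median log2 ratio of 0.66, 5 macrophage genes -0.49, 5 adipocyte genes 0.26, 4 endothelial genes -0.074 and 3 blood genes -0.092. The mean log2 signal of the 7 fibroblast genes lay between 11.2 and 12.0 in the LIM bulls and between 10.3 and 11.4 in the HF bulls, and that of the 5 macrophage genes between 7.43 and 7.91 in the LIM bulls and between 7.71 and 8.83 in the HF bulls. Among these markers COL3A1, a collagen chain, had a ratio of 2.53 ± 0.44 and CFD, an adipocyte complement factor, -1.17 ± 0.20, both past the test described next, while the members of their lists ranged from -0.27 to 2.53 and from -1.17 to 0.64. Leaving out an array gave adipocyte medians of -0.032 to 0.30, endothelial medians of -0.24 to 0.040 and blood medians of -0.23 to 0.056, so these have no settled sign. The part of these cells in the ratios below was not tested, and in whole tissue fewer cells of a type and less RNA per cell cannot be told apart.

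The comparison of the breeds addressed whether the sirtuins and PGC-1 alpha, regulators of energy metabolism and protein turnover, differ between beef and dairy muscle. None of the 5 measured genes passed the test. Their adjusted p ranged from 0.0924 for SIRT1 to 0.398 for SIRT5 in limma with Benjamini-Hochberg adjustment over 15855 probes, of which 868 (5.47%) passed, 2.96% higher and 2.51% lower in LIM. Without array 1, 2 or 4 no probe passed and without array 3 the number was 51, so every call given below was made with all 4 arrays. At an unadjusted p under 0.05 the count was 2 of 5, SIRT1 and SIRT6, against 28.9% of all genes. The log2 ratio is LIM (red) over HF (green), so that a value below 0 is a lower LIM signal, and the number after ± is the moderated standard error over 4 arrays.

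SIRT1 encodes the nuclear deacetylase that acts on histones, FOXO factors and PGC-1 alpha. Its normalised log2 signal was 7.04, 6.90, 7.07 and 7.06 in the LIM bulls of arrays 1 to 4, against 7.48, 7.18, 7.16 and 7.45 in the HF bulls of the same arrays. Every LIM bull lay below every HF bull, which was also so for 542 of 6376 genes (8.5%), while in 8.56% every LIM bull lay above. The LIM bulls differed little among themselves (SD 0.077) and the HF bulls more (SD 0.17), with HF bulls 1 and 4 highest.

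The log2 ratios of SIRT1 were -0.44, -0.28, -0.089 and -0.39 on arrays 1 to 4. All 4 were below 0, and array 3 lay nearest to 0. The mean was -0.30 ± 0.08 (n = 4, adjusted p = 0.0924), a signal of 0.811 times that of HF, with a 95% interval of -0.51 to -0.097 before adjustment. Of 6376 genes, 916 had an unadjusted p as small as that of SIRT1 or smaller.

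The SIRT1 probe was a dim one. After subtraction of the local background its spots held 87 to 128.5 units in LIM and 30 to 86 units in HF. Red was brighter than green on the arrays as a whole, so the raw LIM signal of SIRT1 exceeded the HF signal, and the ratio below 0 is relative to the other probes of like brightness on the array. The 1796 probes within 0.25 log2 units of its mean intensity had a median ratio of 0.018, and 4.34% of them passed the test. The paired spots of SIRT1 differed by up to 0.22 in log2 ratio on an array, and on array 3 the pair read 0.020 and -0.20.

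The size of the SIRT1 ratio depended on how dim signals were treated. The background correction added 50 units to each signal, which pulls the ratios of dim probes towards 0. With 16 units in its place the mean was -0.40 (adjusted p = 0.0766), and with the signals processed by the scanner software it was -0.55 (adjusted p = 0.0911). On those processed signals the methods' t-test, used unadjusted and together with a 1.3-fold minimum, did call SIRT1 (1.46-fold lower in LIM by the dye labels, where 7.81% of all genes were called lower), an alternative chosen after seeing the data. On the values reported here that test put SIRT1 and SIRT2 past its p threshold, but neither reached the fold minimum, and none of the 5 genes passed after adjustment.

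**Figure D1:**
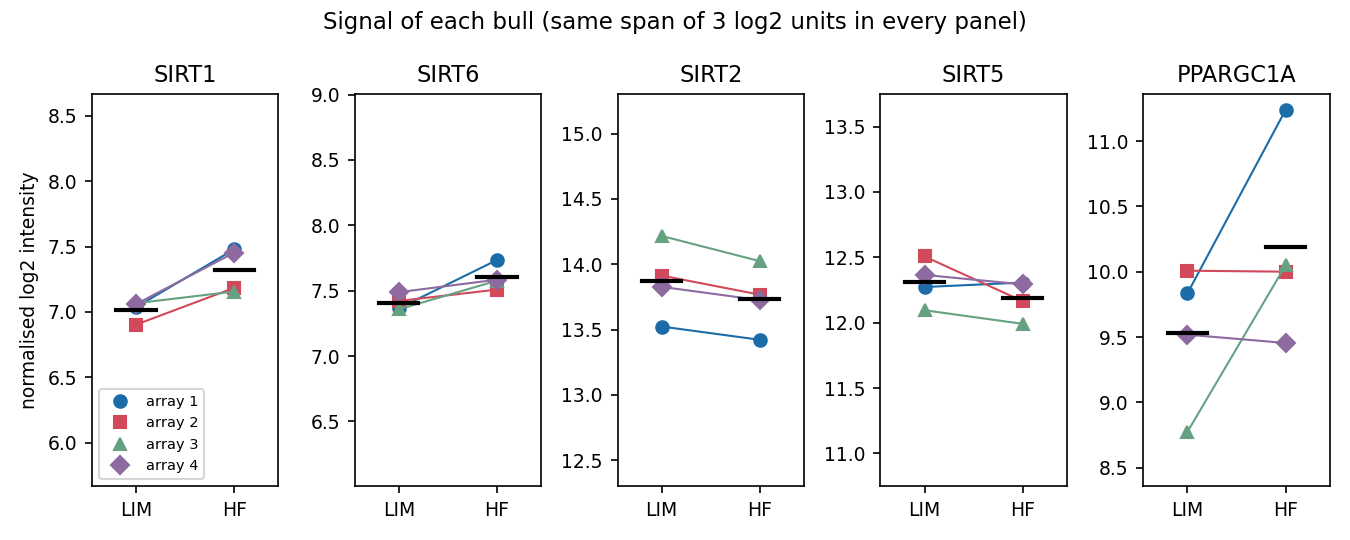
Normalised log2 intensity (vertical axis) of the brightest probe of each gene in the 4 LIM bulls (left in each panel) and the 4 HF bulls (right), with lines joining the bulls of 1 array and thick bars for the breed means. Every LIM bull lies below every HF bull for SIRT1 and SIRT6, as for 8.5% of all genes. PPARGC1A spreads most, from 8.77 in LIM bull 3 to 11.2 in HF bull 1.

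SIRT6, a nuclear deacetylase of histones that takes part in genome maintenance and the restraint of glycolytic genes, was the other nuclear sirtuin measured. Its log2 signal was 7.37, 7.42, 7.36 and 7.49 in the LIM bulls, against 7.73, 7.51, 7.58 and 7.58 in the HF bulls. Every LIM bull lay below every HF bull, as in 8.5% of all genes, and LIM bull 4 and HF bull 2 lay closest to each other. The ratios were -0.37, -0.087, -0.22 and -0.096, with a mean of -0.19 ± 0.07 (adjusted p = 0.175). This probe too was dim, with 123.5 to 207 units in LIM and 58.5 to 102.5 units in HF after background subtraction. Its paired spots differed by up to 0.21 in log2 ratio, and read 0.012 and -0.19 on array 2 and -0.19 and 0.0011 on array 4. With each array centred on its median in place of loess the mean was 0.038, where the 1549 probes of like intensity had a median of 0.23, against 0.012 with loess.

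SIRT2 encodes the cytosolic deacetylase known for acting on tubulin. Its log2 signal was 13.52, 13.91, 14.22 and 13.83 in the LIM bulls, against 13.42, 13.77, 14.02 and 13.73 in the HF bulls. The breeds overlapped widely, while the bulls of each array lay close together. The ratios were 0.10, 0.15, 0.19 and 0.10, and their SD of 0.044 was in the lowest 2.98% of the 6376 genes. The mean was 0.14 ± 0.06 (adjusted p = 0.206), a signal of 1.10 times that of HF. The methods' t-test, which takes the spread from SIRT2 alone, gave an adjusted p of 0.155.

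SIRT5 encodes a mitochondrial enzyme that removes succinyl, malonyl and glutaryl groups. Its log2 signal was 12.27, 12.51, 12.09 and 12.37 in the LIM bulls, against 12.31, 12.16, 11.99 and 12.29 in the HF bulls. The breeds overlapped. The ratios were -0.034, 0.34, 0.10 and 0.072, with array 2 the highest, and the mean was 0.12 ± 0.08 (adjusted p = 0.398, 95% interval -0.085 to 0.33).

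Of the 5 genes, SIRT1 and SIRT6 had 4 ratios below 0, SIRT2 had 4 above 0, and SIRT5 and PPARGC1A had both signs. The same sign on all 4 arrays was thus found for 3 of 5, beside 36.2% of all genes (17.4% below 0 and 18.7% above).

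**Figure D2:**
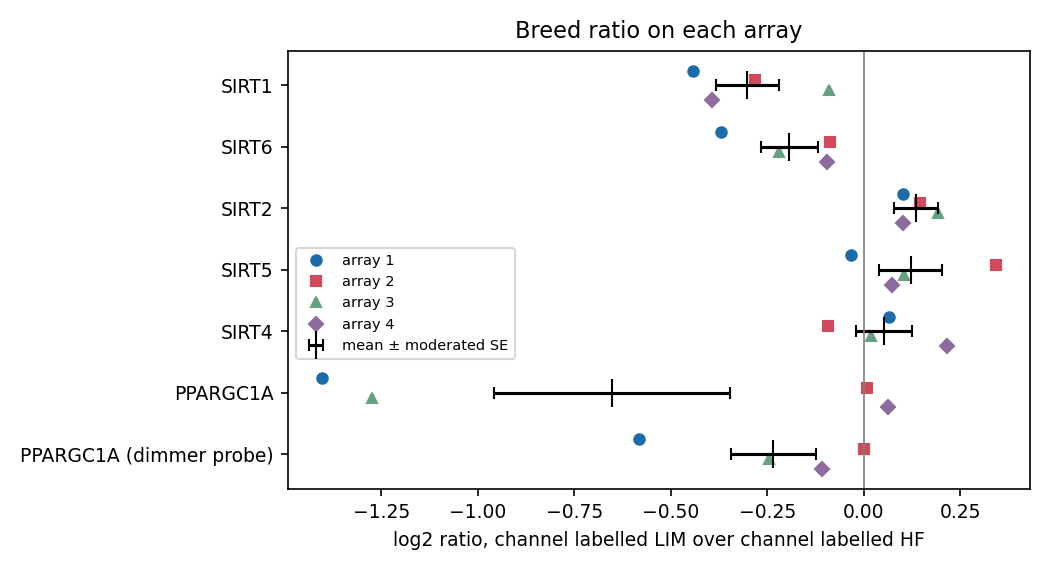
Log2 ratio of LIM over HF by the dye labels (horizontal axis) for each probe of the measured genes and for SIRT4, with symbols for the 4 arrays and bars for the mean and its moderated SE. The SIRT1 mean lies at -0.30 and the SIRT2 mean at 0.14, the SIRT6 mean of -0.19 turned to 0.038 with median centring, and the brighter PPARGC1A probe has 2 arrays below -1.2 and 2 near 0.

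SIRT1 was then set against the other sirtuins array by array, by the difference of their log2 ratios, which compares changes and not levels. SIRT4, the mitochondrial sirtuin outside the chosen set, was added as a further sirtuin, and its probe was about as dim as that of SIRT1. Its ratios were 0.065, -0.092, 0.018 and 0.21, with a mean of 0.051 ± 0.073 (adjusted p = 0.692). The exact sign-flip permutation test (two-sided) over 4 arrays cannot give a p below 0.125, so none of the 4 pairs could pass.

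The SIRT1 ratio was lower than that of SIRT2 by 0.54, 0.43, 0.28 and 0.50 on arrays 1 to 4, a mean difference of -0.44 ± 0.11 (SD, n = 4, exact p = 0.125, adjusted over 4 pairs 0.167). Against SIRT5 the differences were -0.41, -0.62, -0.19 and -0.47, with a mean of -0.42 ± 0.18 (exact p = 0.125, adjusted 0.167). Both comparisons had the same sign on all 4 arrays. The probes of SIRT2 and SIRT5 were brighter than that of SIRT1 by 6.62 and 5.09 log2 units, and median centring in place of loess widened these mean differences to -1.01 and -0.95.

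The dim probes gave a mixed picture. Against SIRT4 the differences were -0.51, -0.19, -0.11 and -0.61, with a mean of -0.35 ± 0.24 (exact p = 0.125, adjusted 0.167) and of -0.36 with median centring. Against SIRT6 they were -0.074, -0.19, 0.13 and -0.30, with a mean of -0.11 ± 0.18 (exact p = 0.375, adjusted 0.375). SIRT1 thus lay below SIRT2, SIRT4 and SIRT5 on all 4 arrays, and below SIRT6 on 3 of 4.

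**Figure D3:**
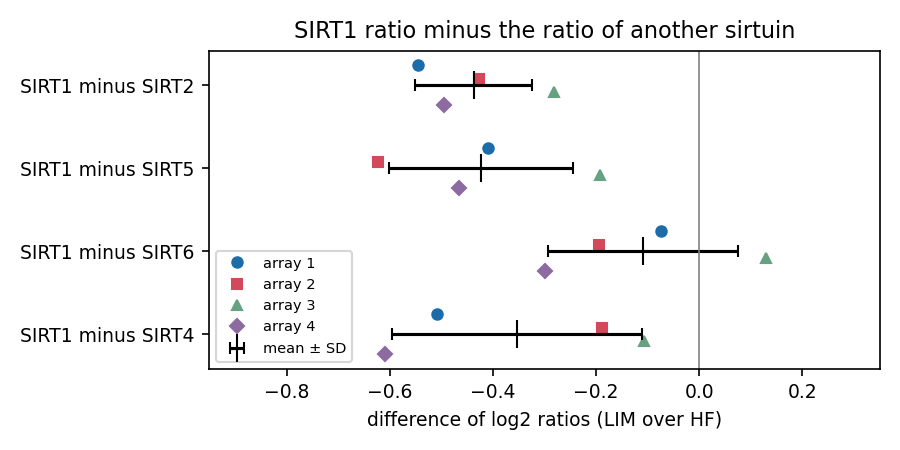
Log2 ratio of SIRT1 minus that of another sirtuin (horizontal axis) on each of the 4 arrays (symbols), with bars for the mean and its SD. All 4 arrays lie below 0 against SIRT2, SIRT5 and SIRT4, and array 3 lies at 0.13 against SIRT6.

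PPARGC1A varied more between bulls than the sirtuins did. Its log2 signal was 9.83, 10.008, 8.77 and 9.52 in the LIM bulls, against 11.24, 10.001, 10.05 and 9.46 in the HF bulls. HF bull 1 stood highest and LIM bull 3 lowest, and the other 6 bulls lay between 9.46 and 10.05, with the breeds overlapping. The SD was 0.55 among the LIM bulls and 0.75 among the HF bulls.

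The PPARGC1A ratios were -1.40, 0.0076, -1.27 and 0.064 on arrays 1 to 4. Arrays 1 and 3 were thus far below 0, arrays 2 and 4 were near 0, and no array lay between. The mean was -0.65 ± 0.31 (adjusted p = 0.246), with a 95% interval of -1.43 to 0.12. The SD of 0.80 between arrays was at the 98.0th percentile of all genes, where probes of like intensity had a median SD of 0.26. Without array 1 the mean was -0.40, without array 2 -0.87, without array 3 -0.44 and without array 4 -0.89, none past the test.

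Both spots of the brighter PPARGC1A probe gave the same picture, with a difference of at most 0.043 on any array. The second and dimmer PPARGC1A probe had ratios of -0.58, -0.00030, -0.25 and -0.11 and a mean of -0.23 ± 0.11 (adjusted p = 0.247). With the processed signals, where no constant is added, the mean of the brighter probe was -0.68 (adjusted p = 0.215). With median centring it was -0.11, when the 883 probes of like intensity had a median of 0.60.

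Genes on which PGC-1 alpha is known to act in muscle were described from a list of 25, of which 17 were measured. Among them 2 were higher, 1 was lower and 14 did not pass, where 5.93% of all genes passed. At an unadjusted p under 0.05 in limma the count was 7 of 17, beside 28.9% of all genes. UCP3, a mitochondrial carrier of muscle, was higher in LIM, with ratios of 1.85, 1.83, 1.61 and 1.40 (mean 1.67 ± 0.10, adjusted p = 0.0183). Myoglobin (MB), the oxygen store of muscle and also on the fibre marker list, was higher with ratios of 0.73, 1.26, 0.71 and 1.39 (mean 1.02 ± 0.15, adjusted p = 0.0326). PDK4, a kinase that shuts off pyruvate dehydrogenase, was lower with ratios of -4.16, -4.16, -2.18 and -1.71 (mean -3.05 ± 0.49, adjusted p = 0.0402).

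The median ratio over the 17 targets was -0.052, beside 0.0029 over all genes, and by array it was -0.29, 0.13, -0.27 and -0.011. Arrays 1 and 3, where the PPARGC1A ratio was lowest, also had the lowest target medians. The same was so of 1 other pathway list of the 7, the mitochondrial substrates, and not of the other 5. It was also so of 3 of 6 marker lists, with medians on arrays 1 to 4 of -0.22, 0.22, -0.51 and 0.041 for endothelial, -0.37, 0.35, -0.47 and 1.15 for adipocyte and 0.18, 0.69, 0.63 and 0.85 for fibroblast genes, and the part of these cells was not tested. Of the 3 genes that passed, MB shared that order, while PDK4 was lowest on arrays 1 and 2 and UCP3 highest on them. LDHB (mean -1.24), TNNC1 (-1.12) and the slow fibre gene MYH7 (-1.06) did not pass but were also lowest on arrays 1 and 3. ACADM, CPT1B, MFN2 and SLC2A4 did not share that order. The part of fibre type was not tested. With 4 arrays no correlation was computed. With median centring the target median was 0.60, with 4 of 17 genes higher and 1 lower, where 25.5% of all genes were called higher and 1.71% lower under that setting.

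Of 28 partners of PGC-1 alpha and factors of mitochondrial transcription, 12 were measured and none passed (limma). Unadjusted, 3 had a p under 0.05 in limma, beside 28.9% of all genes. ESRRA, the estrogen-related receptor through which PGC-1 alpha acts on mitochondrial genes, had ratios of -0.062, 1.26, 0.29 and 1.05 (mean 0.63 ± 0.24, adjusted p = 0.173). Arrays 1 and 3 were again the lowest. MEF2A, a muscle transcription factor, had 0.93 on array 1 and 0.15 to 0.31 on arrays 2 to 4 (mean 0.40 ± 0.15, adjusted p = 0.16). CRTC2, a coactivator of CREB, had 0.15, 0.49, 0.31 and 0.15 (mean 0.28 ± 0.08, adjusted p = 0.109). The list median was 0.11 (0.30 with median centring, where 4 of 12 were higher, beside 25.5% of all genes).

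Of 16 genes for AMPK and calcium signalling 7 were measured. The test called 1 higher and 1 lower and 5 did not pass, where 5.93% of all genes passed. CAB39, which encodes the scaffold MO25 of the LKB1 kinase that activates AMPK, was higher with ratios of 0.89, 0.56, 0.57 and 0.50 (mean 0.63 ± 0.09, adjusted p = 0.0307). STRADA, the pseudokinase of the same complex, was lower with ratios of -0.49, -0.61, -0.57 and -0.31 (mean -0.49 ± 0.07, adjusted p = 0.0351), but had -0.014 with median centring. These partners of a single complex thus had opposite signs on all 4 arrays. The catalytic AMPK subunit PRKAA1 had 0.19 (adjusted p = 0.132), but its dim probe was not above background in both dyes on all arrays. The list median was 0.19, or -0.021 over the 6 genes that were above background in both dyes on all arrays. STRADA did not pass with processed signals (adjusted p = 0.0527), and with median centring 3 of 7 were higher and 0 lower, beside 25.5% and 1.71% of all genes.

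NAD, the cofactor of the sirtuins, is made and used by a list of 20 genes, of which 7 were measured and none passed (limma). Unadjusted, 4 had a p under 0.05 in limma, beside 28.9% of all genes. NMRK2, the nicotinamide riboside kinase of muscle, had ratios of 0.11, 1.15, 1.92 and 1.04 (mean 1.06 ± 0.29, adjusted p = 0.0948). PNP, a phosphorylase that splits nucleosides including nicotinamide riboside, had -0.40 ± 0.11 (adjusted p = 0.103, and 0.26 with median centring). NMNAT1, the nuclear enzyme that completes NAD, had 0.37 ± 0.11 (adjusted p = 0.107). The list median was 0.043 (0.47 with median centring, where 2 of 7 were higher, beside 25.5% of all genes).

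Of 24 nuclear and cytosolic substrates and regulators of sirtuins 12 were measured and none passed (limma). Unadjusted, 7 had a p under 0.05 in limma, beside 28.9% of all genes. The methods' t-test, unadjusted and with its fold minimum, called 1 lower, where it called 10.4% of all genes. RELA, the NF-kappaB subunit deacetylated by SIRT1, had -0.22, -0.36, -0.73 and -0.43 (mean -0.44 ± 0.10, adjusted p = 0.0678). HIF1A, the hypoxia factor, had -0.54 ± 0.15 (adjusted p = 0.0956) and HDAC6, a tubulin deacetylase that works beside SIRT2, -0.33 ± 0.09 (adjusted p = 0.0996). With median centring RELA and HDAC6 had 0.17 and 0.24, and HIF1A had -0.098 (limma adjusted p = 0.595). The list median was -0.13, and 0.35 with median centring, where 4 of 12 were higher, beside 25.5% of all genes.

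Mitochondrial substrates of sirtuins were measured for 21 of 28 genes. Among them 2 were higher, 1 was lower and 18 did not pass, where 5.93% of all genes passed. SLC25A4, the ADP/ATP carrier of muscle, was higher with ratios of 0.81, 0.50, 0.28 and 0.64 (mean 0.55 ± 0.10, adjusted p = 0.0471). OPA1, which fuses the inner mitochondrial membrane, was higher with ratios of 0.48, 0.38, 0.33 and 0.27 (mean 0.37 ± 0.06, adjusted p = 0.0446). ATP5PO, a subunit of ATP synthase, was lower with ratios of -0.33, -0.35, -0.48 and -0.35 (mean -0.38 ± 0.06, adjusted p = 0.0402), but had 0.28 with median centring. The list median was 0.084, and by array -0.087, 0.31, -0.073 and 0.11, with arrays 1 and 3 the lowest. SLC25A4, OPA1 and ATP5PO did not pass with processed signals (adjusted p of 0.0579 to 0.107), and with median centring the median was 0.61 and 6 of 21 were higher, beside 25.5% of all genes.

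The zinc-dependent histone deacetylases, which remove acetyl groups without NAD, were measured for 6 of 11 genes. None passed (limma, with 3 at an unadjusted p under 0.05, beside 28.9% of all genes). HDAC1, a nuclear deacetylase of corepressor complexes, had 0.24 ± 0.09 (adjusted p = 0.166). HDAC8 had 0.30 ± 0.10 (adjusted p = 0.136, and 0.84 with processed signals at an adjusted p of 0.0847). The list median was 0.13 (0.50 with median centring, where 1 of 6, HDAC1, was higher, beside 25.5% of all genes). HDAC6, given above, is on this list too. The methods' t-test, unadjusted and with its fold minimum, called 0 genes among these deacetylases, the PGC-1 alpha partners and the NAD genes, where it called 10.4% of all genes. It called 2 higher and 1 lower of the 17 PGC-1 alpha targets and 2 higher and 1 lower of the 7 AMPK and calcium genes. Of the 21 mitochondrial substrates it called 1 higher and 0 lower.

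**Figure D4:**
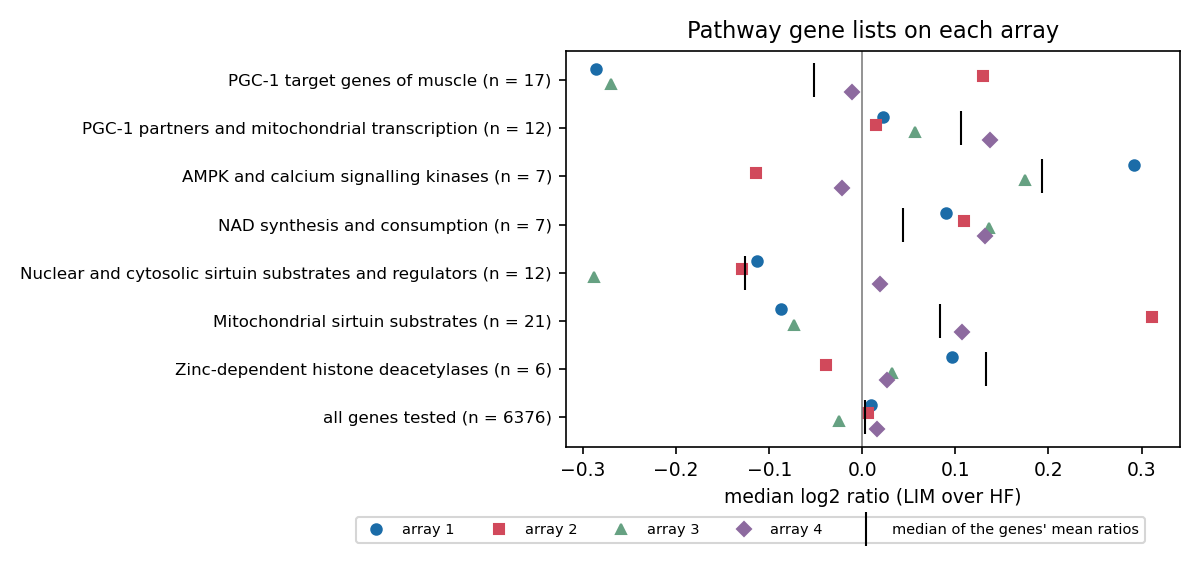
Median log2 ratio of LIM over HF (horizontal axis) of 7 gene lists and of all genes tested, with symbols for the median on each of the 4 arrays and bars for the list median of the means over arrays. The PGC-1 targets have -0.29 and -0.27 on arrays 1 and 3 and the mitochondrial substrates -0.087 and -0.073, below their values on arrays 2 and 4; with median centring the medians of both lists lie above 0.

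The genes whose 4 ratios lay nearest to those of SIRT1, by the root mean square difference over the 4 arrays among 6375 genes, were ADCY5, an adenylyl cyclase (0.040), RPL15, a ribosomal protein (0.066), and ZBTB43, a zinc finger protein (0.066). The ratios of ADCY5 were -0.38, -0.28, -0.047 and -0.43. Its probe was as dim as that of SIRT1, with a mean log2 intensity of 7.07, against 7.16 for SIRT1. With median centring the mean of ADCY5 was -0.22 and that of SIRT1 -0.19, while the brighter RPL15 and ZBTB43 turned to 0.36 and 0.15.

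For PPARGC1A the nearest genes lay farther off, at 0.27 for RPL3L, a ribosomal protein of striated muscle, 0.28 for the atypical chemokine receptor ACKR4 and 0.30 for the carbonic anhydrase CA4. RPL3L had ratios of -1.36, -0.44, -1.14 and -0.21, ACKR4 had -0.94, -0.29, -1.14 and 0.022, and CA4 had -1.17, 0.36, -0.88 and 0.16. RPL3L, ACKR4 and CA4 too were lowest on arrays 1 and 3, the pattern for which they were picked. Their means with median centring were -0.12, -0.38 and 0.051. None of the 6 genes passed the test (limma). Unadjusted, 5 had a p under 0.05 in limma, beside 28.9% of all genes, but they were picked by these same ratios.

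The signs of SIRT1, SIRT2, SIRT5 and PPARGC1A stayed the same under the 20 other settings run, while that of SIRT6 turned under median centring (0.038, below the median of 0.23 of probes of like intensity). Some of these settings change only the filter, the variance prior or the test, and so cannot turn the sign of a mean. Median centring leaves the brightness trend between the dyes in place, and moved the median ratio of all kept probes to 0.25, against 0.018 with loess. It called 3525 probes higher and 275 lower, against 470 higher and 398 lower with loess, a share of 92.8% higher against 54.1%. Under it SIRT2 had 0.82 (adjusted p = 0.0511) where probes of like intensity had a median of 0.64, and SIRT5 had 0.76 (adjusted p = 0.057) where they had 0.66. SIRT1 had -0.19 (adjusted p = 0.26) where they had 0.13, and its array 3 lay at 0.071. Of the other genes named above, MB had 1.76, CAB39 1.28, SLC25A4 1.24 and OPA1 0.86 under it.

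**Figure D5:**
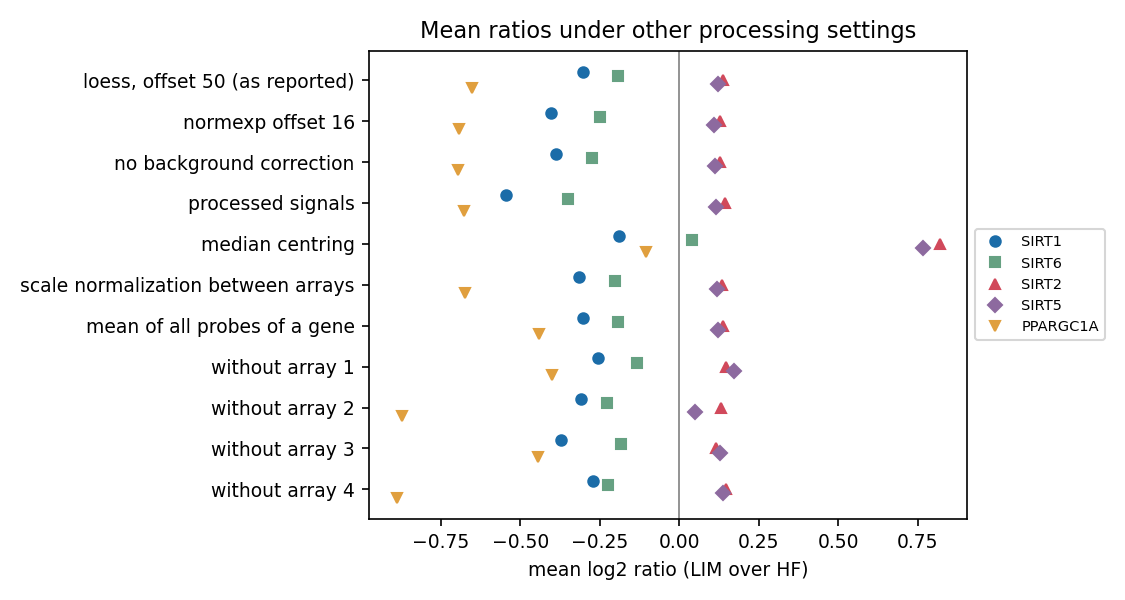
Mean log2 ratio of LIM over HF (horizontal axis) of the 5 measured genes with the reported processing and 10 other settings (rows). SIRT1 ranges from -0.55 with processed signals to -0.19 with median centring, where SIRT6 turns to 0.038 and SIRT2 and SIRT5 lie at 0.82 and 0.76.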

How the data were processed

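Per the file headers the authors quantified the arrays with Agilent Feature Extraction. The deposited intensity values used were the median signals of spots and local background, together with processed signals, from which the software had removed background and dye bias. Log10 ratios, deposited by the authors, were of processed Cy5 over Cy3, and were identical to those of the series table (largest difference 0, column medians 0).

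Here, background was corrected by normexp (offset 50) and log2 ratios were normalized by loess within arrays, with control spots at weight 0. Between 5 and 10 non-uniform spots per array were left out and no spot was saturated. Paired spots were averaged. A probe was kept if, for 1 dye, all its spots exceeded background by the software's call on 3 arrays or more (15855 of 21475 probes). Each probe's mean was tested against 0 (two-sided) in limma 3.58.1 (R 4.3.3), with Benjamini-Hochberg adjustment, and each gene was represented by its brightest kept probe. The fit was tested on simulated data. Levels per bull are log2 signals after loess and Aquantile normalization. Log2 ratios correlated between arrays with Pearson's r of 0.40 to 0.60 across probes, which are not independent replicates.

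Accessions, without version, were named through the RefSeq gene table of ARS-UCD2.0 (8297 probes). No coordinates are given, since the array was designed on a different build.

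The genes, lists and settings were chosen with earlier results of these data known. Genes named from a list are up to 3 with the largest ratios past the test or, where none passed, the smallest p; the 3 genes nearest to SIRT1 and to PPARGC1A; and up to 2 markers past the test. PRKAA1, LDHB, TNNC1, MYH7, ACADM, CPT1B, MFN2 and SLC2A4 were named after their values were seen. Alternatives covered background and normalization, dim probes, outlying spots, the variance prior, array weights, the methods' t-test, unpaired channels, the mean of a gene's probes and leaving out each array.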

Additional observations from a re-analysis of the deposited data

Results flagged for a closer look

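Dixon's ratio was computed for 52 sets of 4 values to find an array or bull that lies apart. The sets were log2 ratios, levels per bull in each breed and SIRT1 differences. Of them 3 exceeded its critical value, where chance (about 1 in 20) gives 2.6. None belonged to a sirtuin or PPARGC1A. ATP5PO had -0.48 on array 3 against -0.35 to -0.33 on the others (ratio 0.900), HDAC8 had 0.62 on array 4 against 0.16 to 0.23 (ratio 0.846), and COL3A1 had 4.23 on array 3 against 1.75 to 2.14 (ratio 0.844).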

How the results depend on the processing

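Of 100 mean ratios of the 5 measured genes under 20 other settings, 99 kept their sign, the exception being SIRT6 with median centring (0.038). Settings that alter only the filter on dim probes, the variance prior or the test leave a mean as it was (SIRT1 -0.30). They could not turn a sign. The processed signals, the series value table and the methods' t-test on processed signals share the same means. SIRT1 passed the methods' unadjusted t-test on processed signals (-0.55). That the genes did not pass elsewhere is no sign of stability, since few or no probes passed without an array or with that test after adjustment. SIRT4 had -0.0031 without array 4 and up to 0.099 without another. Leaving out an array gave -0.37 to -0.25 for SIRT1, -0.23 to -0.13 for SIRT6, 0.12 to 0.15 for SIRT2, 0.047 to 0.17 for SIRT5 and -0.89 to -0.40 for PPARGC1A.

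The number of probes past the test, 868, was 1347 with processed signals or the series value table, 3800 with median centring, 1310 with an intensity trend and robust prior, 1479 with the methods' t-test unadjusted, 2764 with that test on processed signals and 1 with it after Benjamini-Hochberg adjustment. Leaving out array 3 left 51 probes, and leaving out array 1, 2 or 4 left 0. The cause of these shifts was not tested. The array itself pairs the bulls, and without it as a block (channels as separate samples) 1091 probes passed and SIRT1 had -0.30 (adjusted p = 0.0908). SIRT1, SIRT4 and SIRT6 lay near the dim end of the array, where the offset shrinks ratios.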
